A study of Homo sapiens with 6 samples.

Results

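The CDK inhibitor genes are those whose products hold cyclin-dependent kinases in check. They were chosen by name as the 3 CIP/KIP genes (CDKN1A, CDKN1B, CDKN1C), the 4 INK4 genes (CDKN2A, CDKN2B, CDKN2C, CDKN2D) and CDKN3. All 8 are present among the 62754 genes of the deposited tables, and all 8 passed the filter on low values. RNA came from HUDEP-2, an immortalised line of human adult-type erythroid progenitors that the labels call erythroid cells. The cells grew in StemSpan SFEM with 3 units/ml erythropoietin, 50 ng/ml stem cell factor, 1e-06 M dexamethasone and 1 µg/ml doxycycline. One group of 3 libraries received a lentivirus with the MEN1 hairpin sh2 (genotype label MEN1 knockdown), and the other group of 3 received a non-targeting control hairpin (genotype label WT). Both groups were infected, kept in 2 µg/ml puromycin for 48 h from 24 h after infection, and profiled at 72 h. A single MEN1 hairpin in a single line was used, so what follows from less MEN1 and what the hairpin may do elsewhere cannot be told apart. As background, HUDEP-2 was made with doxycycline-driven human papillomavirus E6 and E7, viral proteins known to push cells through the cycle, E7 by inactivating RB, and both groups carry them and were kept in doxycycline.

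In the cell cycle, D-type cyclins with CDK4 or CDK6, and then E-type cyclins with CDK2, phosphorylate RB and release E2F factors that switch on genes of DNA replication. INK4 proteins bind CDK4 and CDK6 and keep D-type cyclins off them, while CIP/KIP proteins bind whole cyclin-CDK complexes and restrain those with CDK2 in particular. Erythroid precursors leave the cell cycle as they mature, and p27, the product of CDKN1B, is known to build up at that stage. Menin, the product of MEN1, is a subunit of MLL histone methyltransferase complexes, and in endocrine cells it is known to promote transcription of CDKN1B and CDKN2C.

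After MEN1 knockdown, 6 of the 8 genes rose and 1 fell at an adjusted p below 0.05 in limma. CDKN1A, CDKN2D, CDKN2B and CDKN1B rose most, from 7.67-fold to 2.07-fold as ratios of mean TPM (transcripts per 1000000, a level per transcript length). CDKN3 rose 1.51-fold and CDKN2C 1.18-fold. CDKN2A, the highest of the 8 by TPM though not by coverage per base, fell to 61.0% of its control level, and CDKN1C did not pass the threshold. In the background, 53.6% of the 14294 genes tested passed the same threshold, 22.1% higher and 31.5% lower, so a single call is an ordinary event in this comparison. The excess of lower calls depends on scaling: 3158 genes were higher and 4499 lower by TPM, and 3758 and 3838 under median-of-ratios scaling. The groups of TPM values did not overlap for 7 of the 8 genes, 6 higher and 1 lower, against 61.8% of all genes tested (25.8% higher and 35.9% lower). On the log2(TPM + 1) scale 4 of the 8 genes were called and rose at least 2-fold, which 4.96% of all genes tested did, and 0 of the 8 fell that far, against 6.9%. The median log2 fold change was 0.81 over the 8 genes and -0.07 over all genes tested.

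Depth, inferred from coverage in units of 1000000 read pairs, was 18.4 to 26.4 after MEN1 knockdown and 23.2 to 35.8 in the controls, and a TPM of 1 or more was reached by 13865 to 14361 genes. MEN1, the targeted gene, was at 6.29, 6.44 and 6.88 TPM with its hairpin and at 41.2, 39.6 and 37.1 TPM in the controls (log2 fold change -2.42, SE 0.0803, adjusted p 8.5e-06). Of 12 erythroid markers, 9 were called higher and 0 lower after MEN1 knockdown (75.0% called higher, against 22.1% of all genes tested). GATA1 (log2 fold change 0.06), KLF1 (-0.05) and EPOR (0.02) were not called. Summed TPM of the 12, mostly HBB, HBA1 and HBA2, was 98285 to 110450.0 against 56657 to 62790.0 in the controls. Mast cell and basophil markers summed to 777 to 965 TPM after MEN1 knockdown and 1192 to 1475 in the controls, mostly TPSAB1, TPSB2 and GATA2, while CLC was at 0 in every library. Of the 11 megakaryocyte markers only TUBB1 and ITGA2B passed the filter and PF4 and PPBP were at 0, with TUBB1 called higher (log2 fold change 2.75) and ITGA2B lower (-0.83). Of the 11 myeloid markers 4 passed, and AZU1 (-1.51), LYZ (-1.05) and CEBPA (-1.18) were called lower while SPI1 was not called (0.08). The lymphoid marker CD3D, the only one of 6 to pass, was called higher (1.96), and of the 9 stem and progenitor markers KIT was called lower (-1.15) and CRHBP passed the filter but was not called (0.40). Summed TPM of these lists was 29.6 to 38.3 against 35.5 to 44.4 in the controls (myeloid), 3.97 to 5.83 against 1.11 to 1.28 (lymphoid, MS4A1 at 0) and 124 to 131 against 259 to 295 (stem and progenitor, SPINK2 at 0). The part of these shifts in the results below was not tested. In bulk RNA, fewer cells of a type and less RNA per cell cannot be told apart.

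The stretches upstream of the start were taken for the 3 genes that rose over 3-fold, CDKN1A, CDKN2B and CDKN2D, and for the upstream start of CDKN2A, the gene that fell, so that the letters of genes that moved apart can be read side by side. They are RefSeq sequences of build GRCh38.p14, from 250 to 81 bases before the annotated start, written 5′ to 3′ on the gene's strand. Capitals mark a GC box (GGGCGG, bound by SP and KLF factors, or its complement CCGCCC) or a CCAAT box (CCAAT or ATTGG).
CDKN1A, chr6:36678464-36678633, plus strand: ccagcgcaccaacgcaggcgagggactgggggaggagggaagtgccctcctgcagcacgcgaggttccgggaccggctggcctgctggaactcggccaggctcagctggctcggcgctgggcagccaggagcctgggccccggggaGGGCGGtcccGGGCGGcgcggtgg
CDKN2B, chr9:22009386-22009555, minus strand: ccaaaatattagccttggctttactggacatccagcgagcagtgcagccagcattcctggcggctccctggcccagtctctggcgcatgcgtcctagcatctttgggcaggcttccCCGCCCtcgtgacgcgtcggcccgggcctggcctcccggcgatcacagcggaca
CDKN2D, chr19:10569060-10569229, minus strand: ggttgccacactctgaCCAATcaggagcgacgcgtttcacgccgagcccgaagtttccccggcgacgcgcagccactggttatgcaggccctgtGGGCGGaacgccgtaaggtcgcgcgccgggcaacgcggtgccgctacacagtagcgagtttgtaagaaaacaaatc
CDKN2A, chr9:21995405-21995574, minus strand: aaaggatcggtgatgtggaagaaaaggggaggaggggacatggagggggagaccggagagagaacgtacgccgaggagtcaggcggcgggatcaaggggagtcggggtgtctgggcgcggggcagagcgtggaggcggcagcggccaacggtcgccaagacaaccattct
The CDKN1A stretch held 2 GC boxes, the CDKN2B and CDKN2D stretches 1 each, and the CDKN2A stretch 0. CDKN2D also held 1 CCAAT box. The 4 were picked by how their genes moved, out of 10 such windows for 7 of the 8 genes. Windows overlapping an annotated exon of their own gene, that of the other CDKN2A start among them, were not printed. The CDKN1A stretch lies within the span of its quantified gene row, which starts at 36676460. It also overlaps DINOL, a gene row on the other strand. The CDKN2A stretch lies before the start of the ARF transcripts, and the deposited value for the whole gene does not show whether these fell. Among the 6 windows not printed, 1 of the 3 of CDKN2C held 2 GC boxes, and those of CDKN1B and CDKN3, which also rose, the other CDKN2A start and the other CDKN2C starts held 0. Among 35116 promoter entries, 29.5% had a GC box in the same 170-base window and 22.1% a CCAAT box. An E-box (CACGTG, in 3.53% of entries), a GATA motif (AGATAA, 6.72%), an E2F core (GCGGGAA, 3.68%), a CACC box (CCACACCC, 1.80%), a TATA box (TATAAA, 6.86%) and a CHR (TTTGAA, 10.2%), searched on both strands, had no match in these 4 stretches. In the windows not printed, CDKN2C had 1 E-box and 1 E2F core, CDKN3 1 CHR, and CDKN1B, CDKN2C and CDKN3 1 CCAAT box each. GC content was 76.5% for CDKN1A, 64.7% for CDKN2B and CDKN2A and 62.4% for CDKN2D, against a median of 56.5% over all entries.

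Among the CIP/KIP genes, CDKN1A changed most of the 8. It encodes p21, an inhibitor of CDK2 complexes that stops cells in G1. CDKN1A (ENSG00000124762, hg38 chromosome 6, 36676460 to 36687337, plus strand) was at 12.2, 20.3 and 17.1 TPM in replicates 1, 2 and 3 of the knockdown and, in the same order of number, at 2.80, 1.82 and 1.84 TPM in the controls; values below follow that order. The lowest MEN1 shRNA library was thus well above the highest control. The means were 16.5 ± 4.07 and 2.15 ± 0.561 TPM (SD, n = 3 each), and the log2 fold change of log2(TPM + 1) was 2.46 (SE 0.202, adjusted p 7.6e-05). At such low control values the added 1 understates the change, and with 0.1 added it was 2.88. Only 0.420% of all genes tested had a higher log2 fold change. Each base was covered on average by 10.0 to 17.7 reads after knockdown and by 1.38 to 2.39 reads in the controls. The only gene row that overlaps it, DINOL on the other strand, was at 0.085 TPM in 1 library and at 0 in the others.

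CDKN1B encodes p27, an inhibitor of CDK2 complexes whose protein level is set largely by SKP2-driven degradation. CDKN1B (ENSG00000111276, chromosome 12, 12685498 to 12722369, plus strand) was at 67.7, 84.2 and 55.3 TPM after MEN1 knockdown and at 39.0, 23.7 and 37.3 TPM in the controls. The groups did not overlap, with replicate 3 the lowest after knockdown and replicate 2 the lowest of the controls. GPR19, which overlaps it on the other strand, was at 1.08 TPM or less in every library. The means were 69.1 ± 14.5 and 33.3 ± 8.34 TPM, giving a log2 fold change of 1.04 (SE 0.212, adjusted p 0.00434). Menin is known as an activator of this gene, and here its RNA was higher in the libraries with less MEN1 RNA.

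CDKN1C, the imprinted gene of p57, was barely detected. CDKN1C (ENSG00000129757, chromosome 11, 2883213 to 2885775, minus strand) was at 1.15, 1.51 and 1.38 TPM after MEN1 knockdown and at 0.633, 1.77 and 2.05 TPM in the controls. The MEN1 shRNA values lay within the range of the controls. The log2 fold change of log2(TPM + 1) was -0.03 (adjusted p 0.923), with a 95% interval of -0.62 to 0.55. A change of that size in either direction was thus not detectable at this level. The added 1 shrinks changes at such low values, so larger fold changes of TPM could also have gone undetected. With 0.1 added the SE was 0.433, against 0.250. The gene passed the filter with 5 of 6 libraries at 1 TPM or more, and the sign of its change turned in 6 alternatives.

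**Figure D1:**
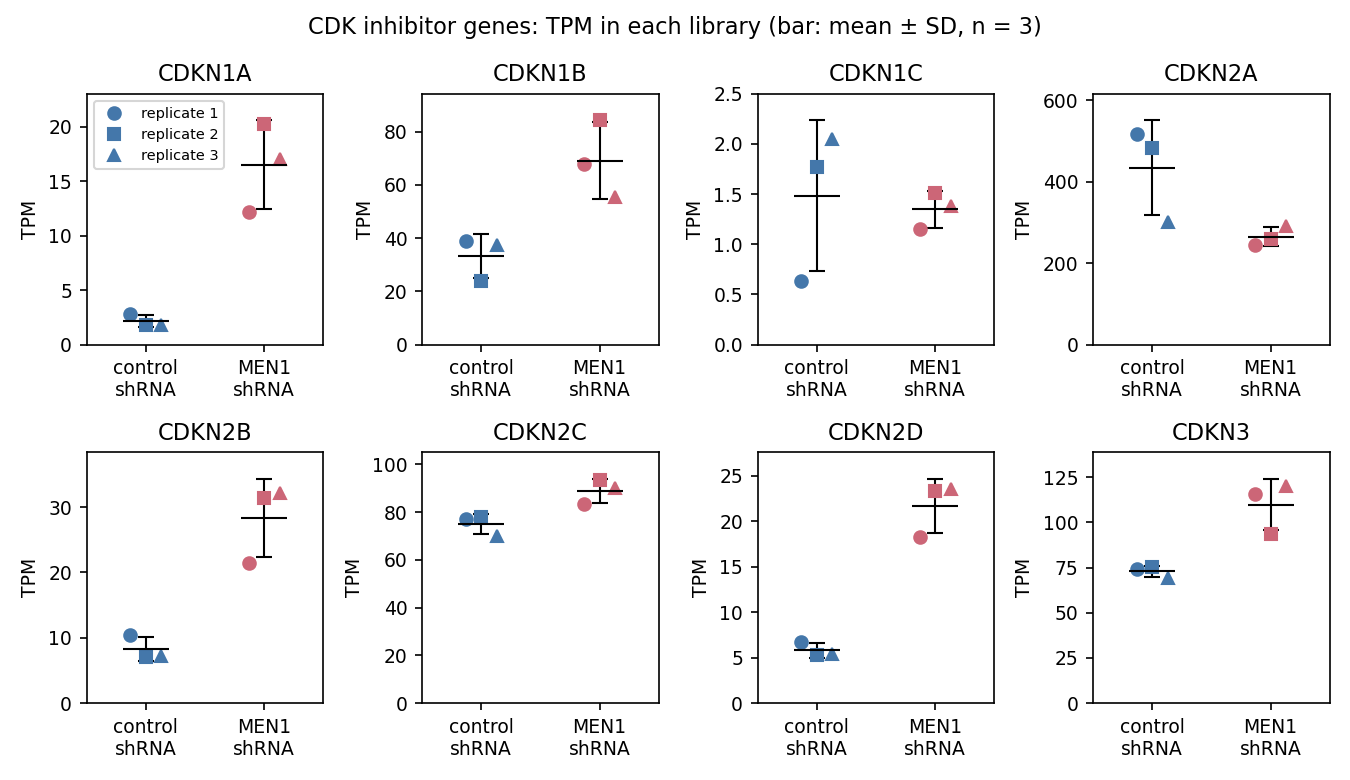
TPM of each CDK inhibitor gene (vertical axes, linear from 0) in the 3 control and 3 MEN1 shRNA libraries, with replicates 1, 2 and 3 as circles, squares and triangles and the mean ± SD in black. The groups are apart in every panel but CDKN1C; CDKN2A is the panel where the MEN1 shRNA values lie below the controls, with control replicate 3 at 302 TPM near them.

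Of the INK4 genes, CDKN2D and CDKN2B rose together. CDKN2D encodes p19, the INK4 protein that varies through the cell cycle and is found in many dividing tissues. CDKN2D (ENSG00000129355, chromosome 19, 10566460 to 10569059, minus strand) was at 18.3, 23.3 and 23.5 TPM after MEN1 knockdown and at 6.72, 5.28 and 5.43 TPM in the controls. The lowest knockdown library was far above the highest control. The means were 21.7 ± 2.98 and 5.81 ± 0.793 TPM, a 3.74-fold ratio, giving a log2 fold change of 1.73 (SE 0.133, adjusted p 5.8e-05).

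CDKN2B encodes p15, an INK4 protein known as a target of TGF-beta signalling. CDKN2B (ENSG00000147883, chromosome 9, 22002903 to 22009305, minus strand) was at 21.4, 31.3 and 32.2 TPM after MEN1 knockdown and at 10.4, 7.13 and 7.26 TPM in the controls. Replicate 1 was the lowest MEN1 shRNA library and the highest control, which narrowed the gap without closing it. The means were 28.3 ± 5.98 and 8.25 ± 1.83 TPM, a 3.43-fold ratio, giving a log2 fold change of 1.66 (SE 0.190, adjusted p 0.000282). The noncoding gene CDKN2B-AS1 (ANRIL), known for its part in silencing this locus, runs across CDKN2B on the other strand and was at 8.05, 8.62 and 6.06 TPM after MEN1 knockdown and 5.59, 5.36 and 6.17 TPM in the controls. Whether the quantification used strand is not given in the sources used here, so reads of the pair may have been shared. With the opposite-strand rows added to CDKN2B, a sum chosen after the data were seen, the log2 fold change was 1.31.

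CDKN2C encodes p18, the INK4 protein known in erythroid and lymphoid maturation and, with CDKN1B, one of the menin targets of endocrine cells. CDKN2C (ENSG00000123080, chromosome 1, 50960745 to 50974634, plus strand) was at 83.4, 93.3 and 90.0 TPM after MEN1 knockdown and at 77.3, 77.9 and 70.2 TPM in the controls. The groups did not overlap, and the step between them was small. The means were 88.9 ± 5.03 and 75.1 ± 4.27 TPM, a log2 fold change of 0.24 (SE 0.0699, adjusted p 0.0217). The call was lost without MEN1 shRNA replicate 2 (adjusted p 0.0760), MEN1 shRNA replicate 3 (0.0628) or control replicate 3 (0.0738), and the adjusted p ranged from 0.00606 to 0.0760 over all alternatives. No test of CDKN1B against CDKN2C was made, so their different fold changes are given side by side only.

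CDKN2A encodes p16, which blocks CDK4 and CDK6, and from an upstream first exon the unrelated protein ARF, an inhibitor of the ubiquitin ligase MDM2. The deposited tables give 1 value for the gene, which does not separate p16 from ARF transcripts. CDKN2A (ENSG00000147889, chromosome 9, 21967752 to 21995301, minus strand) was at 244, 261 and 291 TPM after MEN1 knockdown and at 519, 483 and 302 TPM in the controls. Control replicate 3 stood apart from the other 2 controls and lay just above the highest MEN1 shRNA library. The means were 265 ± 23.7 and 435 ± 116 TPM, giving a log2 fold change of -0.68 (SE 0.191, adjusted p 0.0191). Without control replicate 3 it was -0.92 (adjusted p 0.000521). Without MEN1 shRNA replicate 1 or 2 or control replicate 1 or 2 the call was lost, at adjusted p-values of 0.0595, 0.0528, 0.0604 and 0.0654, and over all alternatives the adjusted p ranged from 0.000521 to 0.0859.

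CDKN3 stands outside both families. It encodes a phosphatase that removes the activating phosphate from CDK2 and CDK1, and its RNA is known to peak around mitosis. CDKN3 (ENSG00000100526, chromosome 14, 54396849 to 54420218, plus strand) was at 116, 93.6 and 120.0 TPM after MEN1 knockdown and at 74.3, 75.2 and 69.2 TPM in the controls. The controls were close together, and replicate 2 was the lowest MEN1 shRNA library for CDKN3 while it was the highest for CDKN1A, CDKN1B, CDKN1C and CDKN2C. The means were 109.9 ± 14.2 and 72.9 ± 3.21 TPM, giving a log2 fold change of 0.58 (SE 0.0987, adjusted p 0.00188).

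**Figure D2:**
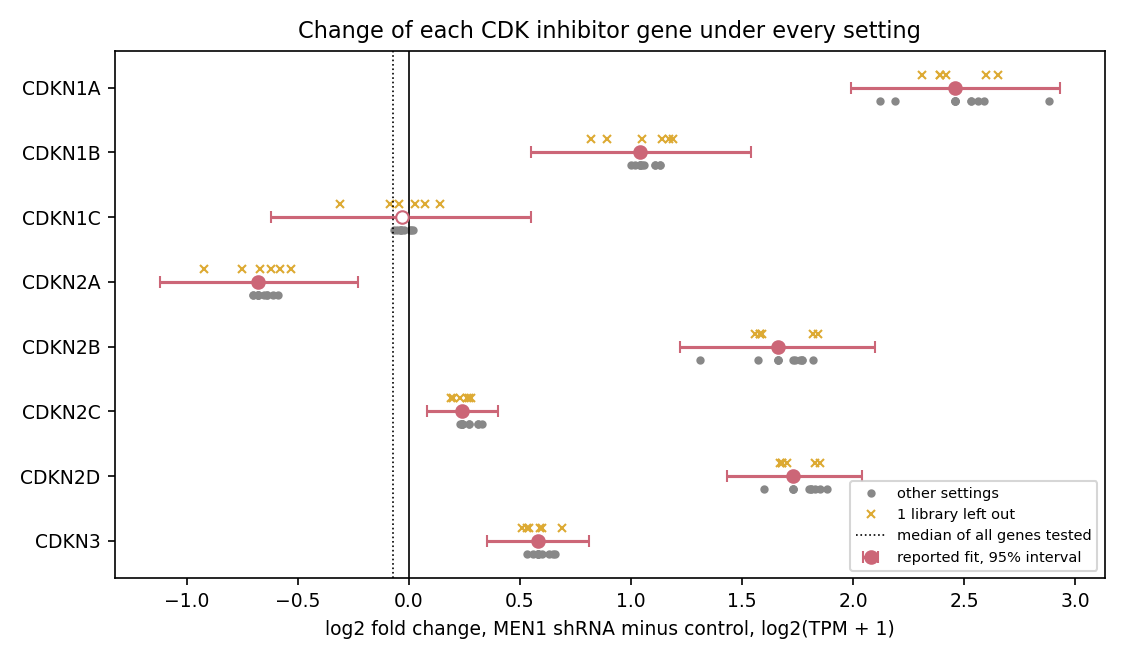
Log2 fold change of each gene (horizontal axis, MEN1 shRNA minus control on the log2(TPM + 1) scale): large points with 95% intervals are the reported limma fit (filled where the adjusted p is below 0.05), crosses leave out 1 library, small dots are the other settings and the dotted line is the median of all genes tested, -0.07. CDKN1A, CDKN2D, CDKN2B and CDKN1B lie furthest to the right, and CDKN2A is alone on the left, from -0.92 to -0.53 with 1 library left out.

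TPM is a level per transcript length and was used to order the 8 genes. The order holds for TPM only: by deposited coverage per exonic base CDKN2A lay below CDKN2C in every library. In the controls the order by mean TPM was CDKN2A, CDKN2C, CDKN3, CDKN1B, CDKN2B, CDKN2D, CDKN1A and CDKN1C. The ranges of CDKN2C and CDKN3 overlapped there, as did those of CDKN1A and CDKN1C, and the other neighbours did not overlap. After MEN1 knockdown the order was CDKN2A, CDKN3, CDKN2C, CDKN1B, CDKN2B, CDKN2D, CDKN1A and CDKN1C. The ranges of CDKN2C and CDKN1B, of CDKN2B and CDKN2D, and of CDKN2D and CDKN1A overlapped. CDKN1A thus stood beside CDKN1C in the controls and beside CDKN2D after MEN1 knockdown.

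Summed over the CIP/KIP genes, TPM was 81.1, 106 and 73.8 after MEN1 knockdown and 42.4, 27.3 and 41.2 in the controls, a ratio of mean sums of 2.35. CDKN1B made up 79.3% ± 4.29 of this sum after MEN1 knockdown and 89.8% ± 2.61 in the controls, and CDKN1A 19.1% ± 4.06 and 5.91% ± 1.25. The INK4 sum, by TPM mostly CDKN2A, did not follow in that unit. It was 367, 408 and 436 TPM after MEN1 knockdown and 613, 574 and 385 TPM in the controls. These ranges overlapped, and control replicate 3 was below 2 of the 3 MEN1 shRNA libraries. The direction depended on the unit. The log2 ratio of mean INK4 sums was -0.38 by TPM and 0.31 by gene-level coverage, in which CDKN2A weighs less. CDKN2A was 65.6% ± 1.58 of the INK4 sum after MEN1 knockdown and 82.4% ± 3.44 in the controls, while CDKN2B was 6.97% ± 0.983 and 1.61% ± 0.329 and CDKN2D 5.36% ± 0.365 and 1.14% ± 0.247. Without CDKN2A, the INK4 sum was 123, 148 and 146 TPM after MEN1 knockdown against 94.4, 90.3 and 82.9 TPM, a ratio of 1.56. Sums of genes chosen by name were given no test.

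**Figure D3:**
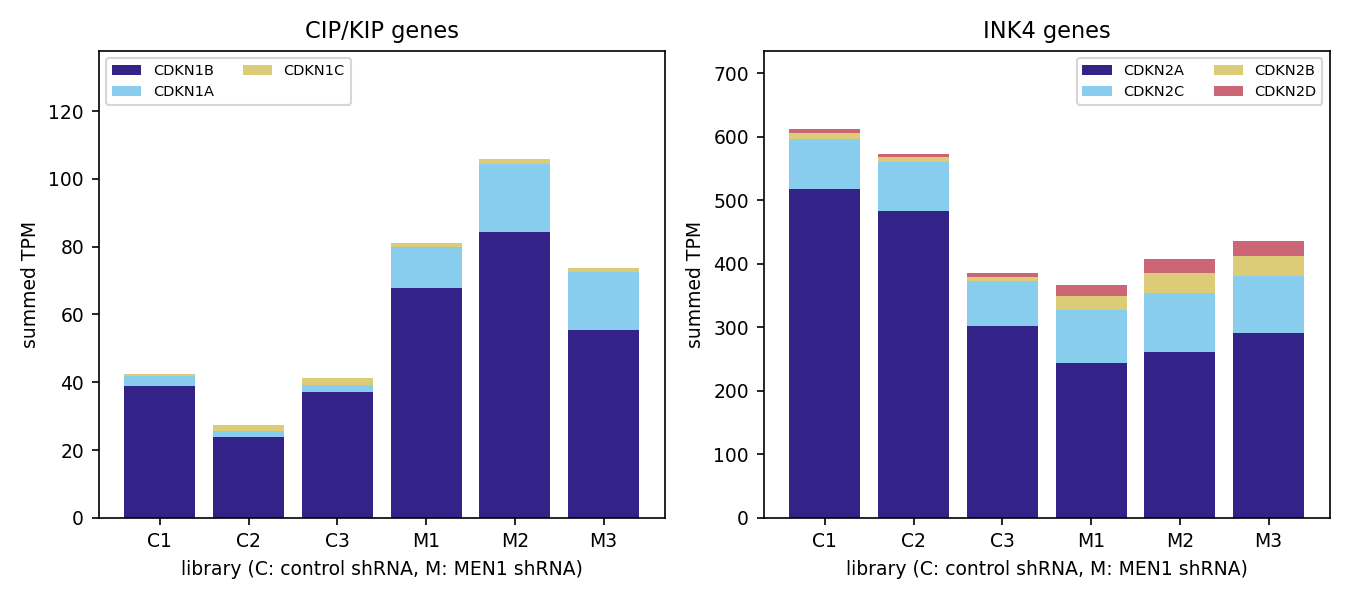
Summed TPM (vertical axes, linear from 0) of the CIP/KIP genes, left, and the INK4 genes, right, in control libraries C1 to C3 and MEN1 shRNA libraries M1 to M3, stacked by gene. CDKN1B fills most of each left bar and CDKN2A most of each right bar, and the CDKN1A, CDKN2B and CDKN2D segments are thicker in M1 to M3.

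The kinases and cyclins that the inhibitors act on were compared next, in a list of 21 genes. It also holds the CDC25 phosphatases, WEE1 and the CDK-activating kinase. Of 20 tested, 9 were higher and 5 lower, 70.0% in all against 53.6% of all genes tested (22.1% higher and 31.5% lower), with a median log2 fold change of 0.04. CCND3, the D-type cyclin known for its role in erythroid cell divisions, rose from 198 ± 11.1 to 746 ± 79.7 TPM (a log2 fold change of 1.90, adjusted p 1.7e-05). CCND1 (-0.39) and CCND2 (-0.50) fell, with adjusted p-values of 0.00546 and 0.000539. The E-type cyclins also parted: CCNE2 rose from a mean of 22.6 to 66.5 TPM (1.52, adjusted p 1.6e-05), and CCNE1 fell from 61.6 ± 2.06 to 42.6 ± 5.58 TPM (-0.53, adjusted p 0.00237). Among the kinases, CDK1 rose (0.67, adjusted p 0.000455), CDK2 (0.26, adjusted p 0.0127) and CDK4 (0.22, adjusted p 0.0313) rose slightly, and CDK6 fell (-0.42, adjusted p 0.0195). WEE1, which holds CDK1 inactive, rose from 32.7 ± 1.89 to 64.8 ± 6.39 TPM.

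Downstream, of 13 RB and E2F genes 6 were higher and 3 lower, 46.2% and 23.1% against the same 22.1% and 31.5% of all genes. RB1 itself was at 70.5 ± 0.488 TPM after MEN1 knockdown and 64.5 ± 0.710 in the controls (log2 fold change 0.13, adjusted p 0.0732). E2F1 (0.87), E2F2 (1.31), E2F7 (1.45) and TFDP2 (0.90) rose, with adjusted p-values of 9.5e-05 or lower. E2F5 fell (-1.68, adjusted p 0.000506). Of 18 genes of replication and mitosis 7 were higher (38.9%, against 22.1% of all genes) and 1 lower (5.56%, against 31.5%). In all, 44.4% passed the threshold against 53.6% of all genes. RRM2 (0.76), CDT1 (0.41) and PCNA (0.33) rose and GMNN, the inhibitor of CDT1, fell (-0.57). MKI67, a general marker of cycling cells, was at 193 ± 11.7 TPM after MEN1 knockdown and 180 ± 5.58 in the controls (0.09, adjusted p 0.237).

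A list of 17 genes on turnover of the inhibitor proteins was read next, and its genes need not all promote their breakdown. Of these, 6 were higher (35.3%, against 22.1% of all genes tested) and 4 lower (23.5%, against 31.5%). The 58.8% called in all are near the 53.6% of all genes. SKP2, the F-box protein that marks p27 and p21 for degradation, fell from 52.8 ± 5.85 to 16.4 ± 5.19 TPM (a log2 fold change of -1.67, SE 0.195, adjusted p 0.000308). Of the core subunits of its ligase, CUL1 (-0.35, adjusted p 0.00483) and SKP1 (-0.40, adjusted p 0.00486) fell, and RBX1 did not pass the threshold (-0.13, adjusted p 0.106). CKS1B, the cofactor SKP2 needs for p27, was at 164 ± 8.16 and 160 ± 4.73 TPM (0.03, adjusted p 0.702). RNF123, a subunit of a cytoplasmic ligase for p27, rose (0.69, adjusted p 7.2e-05). CKS2 (0.42), FZR1 (0.43), PSMD9 (0.62), UBAC1 (0.21) and DTL (0.17), also in the list, were called higher too. That does not by itself mean more breakdown of the inhibitors. CUL4A, the remaining gene called in the list, was lower (-0.40). These are RNA levels, and no protein was measured.

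Of 19 regulators of inhibitor transcription tested, 6 were higher and 6 lower, MEN1 among the latter. That is 31.6% each way, against 22.1% higher and 31.5% lower over all genes tested. MYC, which is known to repress CDKN1A and CDKN2B through ZBTB17 (MIZ1), fell from 232 ± 6.52 to 74.1 ± 15.4 TPM (a log2 fold change of -1.65, SE 0.130, adjusted p 6.4e-05), while ZBTB17 rose slightly (0.26, adjusted p 0.0256). FOXO4, of the FOXO factors known to activate CDKN1B, rose (0.77, adjusted p 0.000266), and FOXO3 was at 45.8 ± 1.41 and 48.8 ± 1.71 TPM (-0.09, adjusted p 0.254). Of the Polycomb genes known to silence the CDKN2A and CDKN2B locus, CBX7 rose from 3.62 ± 0.453 to 7.43 ± 0.487 TPM (0.87, adjusted p 0.000655), BMI1 fell (-0.24, adjusted p 0.0232) and EZH2 did not pass the threshold (-0.05, adjusted p 0.516). ETS2 fell (-0.85, adjusted p 0.000106).

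**Figure D4:**
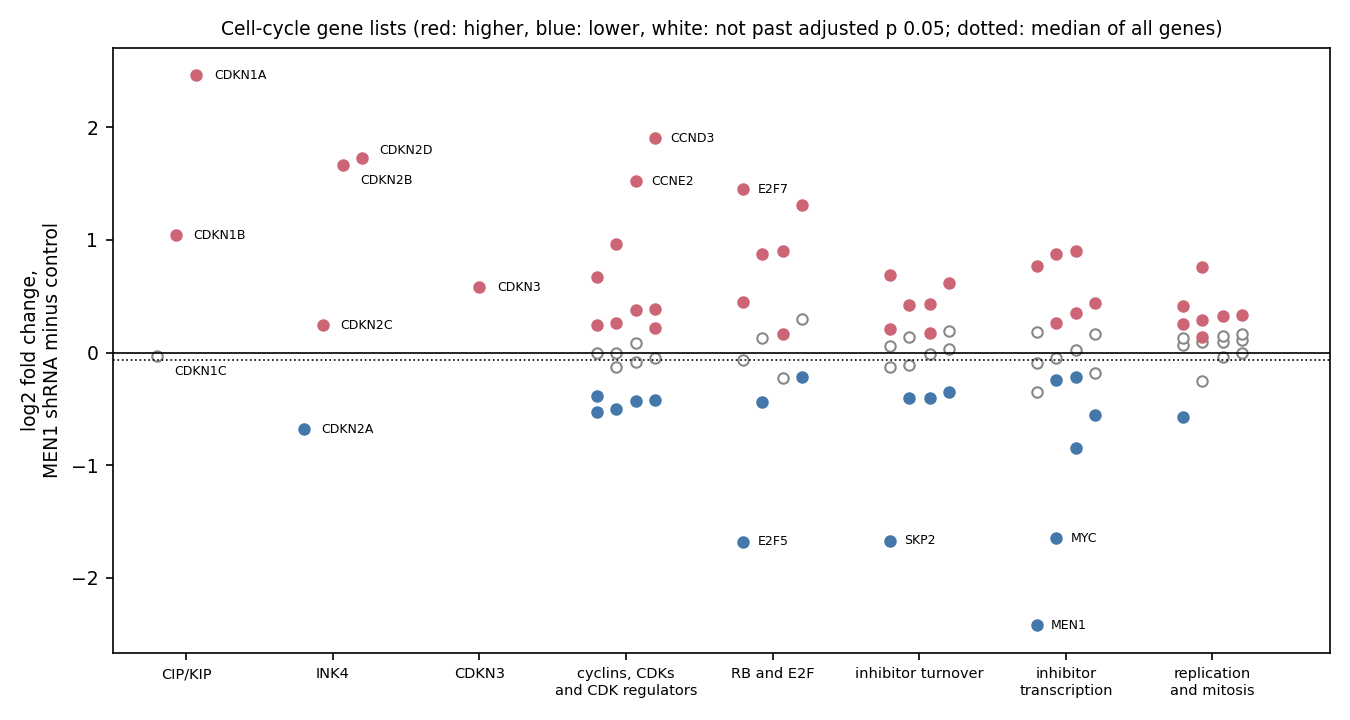
Log2 fold change (vertical axis, MEN1 shRNA minus control) of every tested gene in the 3 inhibitor groups and 5 related lists, red where called higher, blue where called lower and white where not past an adjusted p of 0.05. Each related list holds genes on both sides of 0, with SKP2, MYC and E2F5 among the lowest and CCND3 and CCNE2 among the highest.

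For each inhibitor gene, the genes with the most similar profile were found as the smallest Euclidean distance over the 6 libraries between values of log2(TPM + 1) centred on the control mean, among 12913 named genes. CDKN2B had CDKN2D as its nearest neighbour (distance 0.264), followed by CDC42EP1 (0.266). For CDKN1A they were the histone gene H2BC12 (0.361) and the amino acid transporter SLC1A4 (0.373), and for CDKN1B the DNA polymerase delta subunit POLD4 (0.248) and the phosphatase PTP4A1 (0.319). CDKN2A had NIT2 (0.188) and TFAP4 (0.298), which share its lower value in control replicate 3, at 19.0 against 32.2 and 27.5 TPM for NIT2. That sharing follows from picking genes by closeness over these same libraries. CDKN2C had ADAM15 (0.0794) and MIA3 (0.0804), CDKN3 had LIN37 (0.0827) and CCNYL1 (0.139), and CDKN2D had PDE4DIP (0.137) and CGA (0.154). CGA was near the floor, at 1.85, 2.49 and 2.69 TPM after MEN1 knockdown and 0.0954, 0 and 0 TPM in the controls. Its closeness to CDKN2D therefore rests on the added 1. CDKN1C had ZNF84 (0.184) and UBL7-DT (0.226).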

How the data were processed

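Poly(A)-selected RNA was made into directional libraries, per the labels' protocols. STAR 2.7.1a, StringTie 2.0.4, Picard 2.20.4, Trimmomatic and FastQC and build hg38 are named in the submitters' processing notes, and their annotation and strand setting are not stated there. The deposited tables, 1 per library, hold mean coverage per exonic base, FPKM and TPM, per the file headers; the deposited coverage is not scaled for depth, the authors' FPKM are per kilobase and per 1000000 fragments, and the deposited TPM sum to 1000000 in each library. In control replicate 2, 3 values marginally below 0 were set to 0. Depth was inferred from coverage per FPKM in single-transcript genes of GENCODE v29 and from 302 bases per pair, the commonest amount in genes with few reads. No counts were used.

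Genes that reached 1 TPM in 3 or more of the 6 libraries were fitted as log2(TPM + 1) with limma 3.58.1 in R 4.3.3 (eBayes with trend, MEN1 shRNA minus control, 2-sided). P-values were adjusted by Benjamini-Hochberg over all 14294 genes and read at 0.05; every adjusted p is from limma. That step was checked on simulated data in which far fewer genes changed than were called here. The check therefore does not measure how many calls in these data are false. The labels call the libraries biological replicates without saying what was separate, so p-values measure the spread between these samples. The inhibitor genes and the lists were chosen with earlier results of these data known. Named were the 8 genes, MEN1, up to 4 genes per list with the lowest adjusted p, 17 preset regulators, overlapping genes and the 2 nearest profiles. Of these, 2 regulators and 1 related list are not reported here. CCND1, E2F5, CUL1, SKP1, RBX1, PSMD9, UBAC1, DTL, CUL4A, ZBTB17 and CBX7, and the markers named, were chosen after their values were seen. Alternatives were another unit, pseudocount (0.1), filter (none, or a mean TPM of 5), scaling, a replicate block, array weights, a threshold of 0.01, leaving out each library, and, added after seeing the data, coverage scaled to a sum of 1000000 and opposite-strand sums. Python 3.11.15 and matplotlib 3.10.9 made tables and figures.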

Additional observations from a re-analysis of the deposited data

How the results depend on the processing

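Of 199 comparisons of a result with an alternative, 183 were counted as unchanged. For single genes, MEN1 included, this means the same direction and call. For counts of genes it means a move of at most 1.5 times, so a drop from 7 to 5 called inhibitor genes is counted as unchanged. For family sums, which have no call, it means the same direction and a move smaller than the SD between libraries. CDKN1A (2.12 to 2.88), CDKN1B (0.82 to 1.19), CDKN2B (1.31 to 1.84), CDKN2D (1.60 to 1.88) and CDKN3 (0.51 to 0.69) stayed past the threshold in every alternative run. Without the filter, more genes enter the adjustment, and CDKN2A (-0.68, adjusted p 0.0859) and CDKN2C (0.24, adjusted p 0.0515) no longer passed. The change of CDKN1C, never called, turned to 0.00661 for a pseudocount of 0.1, to 0.0194 under median-of-ratios scaling and to 0.00826 once globin and mitochondrial genes were taken out of TPM. With 1 library left out, log2 fold changes ran from -0.92 to -0.53 for CDKN2A, from 0.19 to 0.28 for CDKN2C and from -0.31 to 0.14 for CDKN1C, and 5 to 6 of the 8 genes passed. The log2 ratio of INK4 sums turned from -0.38 to 0.31 with gene-level coverage, in which CDKN2A weighs less. Scaling by median of ratios moved the median of all genes from -0.070 to 0.008. Replicate numbers were not taken to pair libraries (correlations of deviations 0.017, -0.027 and -0.012). With the replicate block, 7012 genes and 7 of the 8 inhibitor genes passed, with CDKN2A at an adjusted p of 0.0338 and CDKN2C at 0.0441. No gene row overlaps an inhibitor gene on its own strand, so the same-strand sum was not run. CDKN1C could not be fitted at a mean TPM of 5.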

Other observations

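The ratio of deposited coverage to FPKM, divided by the same ratio in single-transcript genes, varied little between the 6 libraries for 6 of the 8 inhibitor genes. It was 0.0842 to 0.0854 for CDKN2A, 0.186 to 0.203 for CDKN1B, 0.226 to 0.237 for CDKN1A, 0.404 to 0.418 for CDKN3, 0.627 to 0.657 for CDKN2C and 0.766 to 0.821 for CDKN2D. On the reading that coverage is a mean over all exonic bases of a gene while FPKM is a sum over its transcripts, a low ratio means that most FPKM lies in transcripts much shorter than the exonic span. The FPKM and TPM of CDKN2A, CDKN1B and CDKN1A then rest on the lengths of the transcripts to which reads were assigned more than those of CDKN2D do. The ratio ranged more widely for CDKN2B, from 0.603 in control replicate 1 to 0.866 in control replicate 3, and for CDKN1C, from 0.535 to 0.726, and within neither gene did the groups separate. By raw coverage, CDKN2A had 71.3, 82.3 and 63.3 reads per base after MEN1 knockdown and 166, 199 and 82.0 in the controls, below CDKN2C (188, 223 and 150 against 183, 240 and 147) in every library, whereas by TPM CDKN2A was the higher of the pair in every library.

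The globin genes took 9.21% to 10.4% of all TPM after MEN1 knockdown and 5.23% to 5.78% in the controls, and TPM of other genes is lower by that share. With globin and mitochondrial genes taken out, the log2 fold changes of CDKN1A (2.56), CDKN1B (1.11), CDKN2B (1.73), CDKN2C (0.31), CDKN2D (1.81), CDKN3 (0.65) and CDKN2A (-0.61) were each slightly higher than with TPM.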
